A study of Homo sapiens with 14 samples.

Results

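The hypoxia-inducible factor (HIF) hydroxylases are 4 genes, EGLN1, EGLN2, EGLN3 and HIF1AN, and their mRNA was followed in PC3 and HCT116 cells in normoxia and hypoxia. Their rows were taken by gene symbol, and the set was chosen with earlier results of these data known. Each of the 4 symbols was present once in every library, among 23106 gene symbols in all, and all 4 passed the filter on low counts in each line. PC3 is an established line from a human prostate carcinoma and HCT116 an established line from a human colorectal carcinoma. Cells of both lines were unmodified and were kept in normoxia (21% O2) or in hypoxia (0.5% O2) for 16 h. Polyadenylated RNA was sequenced from biological replicates, 4 for each PC3 group and 3 for each HCT116 group. The lines were grown in different media, so line and culture medium cannot be told apart, and each line stands for 1 tumour.

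HIF is a transcription factor made of an oxygen-labile α subunit and a stable β subunit. In oxygenated cells the prolyl hydroxylases PHD2 (encoded by EGLN1), PHD1 (EGLN2) and PHD3 (EGLN3) hydroxylate prolines of the α subunit, which the von Hippel-Lindau protein then recognises and marks for proteasomal degradation. The asparaginyl hydroxylase FIH (HIF1AN) hydroxylates an asparagine in the C-terminal activation domain and so blocks the binding of the coactivators p300 and CBP. All of these enzymes use molecular oxygen and 2-oxoglutarate, and EGLN1 and EGLN3 are themselves classical HIF target genes, which makes them part of a negative feedback loop.

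The genes lie on different chromosomes. On GRCh37, EGLN1 spans chr1:231499497-231558033 on the minus strand, EGLN2 chr19:41304901-41314339 on the plus strand, EGLN3 chr14:34393433-34931980 on the minus strand and HIF1AN chr10:102288829-102319755 on the plus strand. Promoter windows of 300 bases around the RefSeq start site are shown for the EGLN genes because HIF binds the core sequence ACGTG or GCGTG, and these genes differed in their hypoxic response. The sequences are from a RefSeq table on GRCh38.p14, and each matched GRCh37 exactly at 1 place. They are written 5′ to 3′ on the gene's strand, and capitals mark ACGTG on either strand.
EGLN1 promoter: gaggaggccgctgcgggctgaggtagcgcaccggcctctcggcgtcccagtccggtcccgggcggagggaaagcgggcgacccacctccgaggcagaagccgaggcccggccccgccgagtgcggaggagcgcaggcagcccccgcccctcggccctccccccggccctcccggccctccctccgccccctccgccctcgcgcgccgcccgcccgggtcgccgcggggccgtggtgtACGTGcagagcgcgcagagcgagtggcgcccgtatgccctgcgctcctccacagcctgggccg
EGLN2 promoter: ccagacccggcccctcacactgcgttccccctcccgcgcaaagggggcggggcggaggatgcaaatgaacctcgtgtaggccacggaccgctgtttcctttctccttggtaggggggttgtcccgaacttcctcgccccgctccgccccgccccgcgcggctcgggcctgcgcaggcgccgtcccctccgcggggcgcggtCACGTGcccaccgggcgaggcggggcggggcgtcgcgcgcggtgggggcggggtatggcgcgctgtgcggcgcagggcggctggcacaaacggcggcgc
EGLN3 promoter: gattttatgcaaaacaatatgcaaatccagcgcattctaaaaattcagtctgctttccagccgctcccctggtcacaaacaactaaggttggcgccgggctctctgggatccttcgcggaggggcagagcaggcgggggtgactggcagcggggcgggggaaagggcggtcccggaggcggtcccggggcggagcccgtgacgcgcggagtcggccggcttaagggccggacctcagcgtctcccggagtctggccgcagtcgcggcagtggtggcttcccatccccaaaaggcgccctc

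These windows lie at chr1:231557984-231558283 (EGLN1, minus strand), chr19:41304846-41305145 (EGLN2, plus strand) and chr14:34420231-34420530 (EGLN3, minus strand). The EGLN1 window held 1 ACGTG, whose first base lay at −13 from the start site. The EGLN2 window held CACGTG, which reads as ACGTG on both strands, so its 2 matches, at −49 and −48, overlap. Neither ACGTG nor GCGTG was found in the EGLN3 window, in the window of HIF1AN at chr10:102295450-102295749, or in that of a second EGLN2 start site at chr19:41305177-41305476. Among 35116 promoter windows of the same length, 21.4% held ACGTG, 36.5% held GCGTG and 48.4% held either. These are matches of letters and not measured binding sites.

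Total counts ranged from 71228454 to 123935458 in the PC3 libraries and from 133067391 to 150630928 in the HCT116 libraries, so the hypoxic PC3 libraries, at a median of 84568058 counts, were the shallowest. Levels are given as CPM (counts scaled to a common library size) after TMM scaling over the 14 libraries, with the SD over replicates. A count of 3 corresponds to 0.0201 to 0.0447 CPM, well under every member's level in every library, and this covers counting error only. The normoxic and hypoxic PC3 libraries numbered 1 stood apart together. Their deviations from the condition means correlated at 0.675 across genes, against 0.140 to 0.282 for the other PC3 pairs of the same number. PC3 hypoxia replicate 4 also lay far from the other hypoxic PC3 libraries. Its chi-square per gene, which grows as 2 libraries differ, was 257, 104 and 142 against replicates 1, 2 and 3. Replicate 1 was at 115 and 99.2 against replicates 2 and 3, which were at 15.3 against each other. The epithelial markers KRT8, KRT18, KRT19 and CDH1 (4 of 4) exceeded 1 CPM in every library of both lines, and the 4 leukocyte markers did so in neither line. Of 5 fibroblast markers 1, COL1A1, exceeded this level in both. Of 8 prostate markers, 4 did so in PC3, among them HOXB13 and TMPRSS2, and 3 in HCT116, while KLK3 was at 0 in every PC3 library. Among 8 colon markers, 3 did so in HCT116, among them CDX2, and 1 in PC3, while VIL1, CDH17 and LGR5 were at 0 in at least 1 HCT116 library.

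EGLN1 and EGLN3 rose in hypoxia in both lines, whereas EGLN2 and HIF1AN did not pass the test in either. EGLN1 rose 2.33-fold in PC3 and 2.94-fold in HCT116, and EGLN3 rose 3.69-fold in PC3 and 6.17-fold in HCT116. All p-values are from the quasi-likelihood test of edgeR, adjusted by Benjamini and Hochberg's method over all genes tested, with a threshold of 0.05. In PC3, where 14309 genes were tested, 6.03% of genes were called higher and 5.29% lower. In HCT116, with 14120 genes tested, the shares were 14.6% higher and 11.3% lower. The members' count was 2 of 4 higher and 0 lower in each line. In bulk RNA, a higher level in every cell and a larger share of expressing cells cannot be told apart.

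EGLN1, which encodes PHD2, the main oxygen sensor of the pathway, was measured in PC3 normoxia at 93.2, 91.4, 90.3 and 86.3 CPM in replicates 1 to 4. In PC3 hypoxia its level was 175, 218, 202 and 245 CPM. The conditions did not overlap, and the hypoxic replicates were more spread (SD 29.5 CPM, n = 4) than the normoxic ones (SD 2.90 CPM, n = 4). The log2 fold change was 1.22 (SE 0.097, adjusted p = 1.52e-04), the 116th largest rise among the genes tested. In HCT116, EGLN1 was at 75.4, 73.2 and 71.3 CPM in normoxia and at 210, 213 and 216 CPM in hypoxia. Again the conditions were separate, here with almost no spread in either (SD 2.03 and 3.06 CPM, n = 3 each). The log2 fold change was 1.56 (SE 0.059, adjusted p = 1.63e-08), the 84th largest rise. On GRCh37, EGLN1 shares 3004 bases, or 55.8%, of its exons with the annotated protein-coding gene ENSG00000287856 on the same strand. Whether the annotation used for counting held that gene is not given in the sources used here.

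EGLN3, which encodes PHD3, the family member most strongly induced by HIF in many cell types, had the lowest CPM of the 4 in every group. In PC3 normoxia it was at 3.23, 1.71, 1.43 and 1.28 CPM, from 147 to 385 counts. In PC3 hypoxia it was at 10.4, 5.87, 5.45 and 6.39 CPM, from 429 to 949 counts. No hypoxic library overlapped a normoxic one, and replicate 1 was the highest in both conditions. The log2 fold change was 1.88 (SE 0.331, adjusted p = 0.00862), ranking 30th. It was 1.62 without hypoxic replicate 1, 2.27 without normoxic replicate 1 and 2.01 without both (adjusted p = 4.10e-04). In HCT116, EGLN3 was at 4.76, 4.66 and 4.80 CPM in normoxia and 27.3, 30.7 and 28.7 CPM in hypoxia. The separation was wide compared with the spread (SD 0.0748 and 1.70 CPM, n = 3 each). The log2 fold change was 2.62 (SE 0.075, adjusted p = 3.40e-09), ranking 27th.

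EGLN2, which encodes PHD1, was at 44.9, 37.0, 37.2 and 35.2 CPM in PC3 normoxia and at 45.6, 39.6, 41.9 and 36.1 CPM in PC3 hypoxia. The conditions overlapped, and replicate 1 was the highest in each. The difference between conditions, 0.09 on the log2 scale (SE 0.11), did not pass the test (adjusted p = 0.643), with a 95% interval from −0.15 to 0.32. In HCT116, EGLN2 was at 50.1, 48.4 and 50.7 CPM in normoxia and 48.3, 46.0 and 48.7 CPM in hypoxia, and the conditions also overlapped. The difference was −0.04 (SE 0.06, adjusted p = 0.632), with an interval from −0.18 to 0.09. Both intervals lie below the log2 fold changes of EGLN1 and EGLN3 in the same line. On GRCh37 the annotated readthrough transcript RAB4B-EGLN2 shares 2012 bases, or 30.6%, of the exons of EGLN2 on the same strand. Whether the annotation used for counting held this transcript is not given in the sources used here, and the files hold no readthrough symbol. RAB4B itself, which encodes a small GTPase, had a log2 fold change of −0.15 in PC3 (adjusted p = 0.697) and rose by 0.46 in HCT116 (SE 0.12, adjusted p = 0.0190).

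HIF1AN, which encodes FIH, was at 267, 267, 269 and 251 CPM in PC3 normoxia and 271, 266, 258 and 277 CPM in PC3 hypoxia. These ranges overlapped, and the difference was 0.03 on the log2 scale (SE 0.06, adjusted p = 0.788), with a 95% interval from −0.11 to 0.17. In HCT116 it was at 106, 102 and 108 CPM in normoxia and 120, 111 and 125 CPM in hypoxia. The HCT116 conditions did not overlap, but the difference, 0.19 (SE 0.07, interval 0.05 to 0.34), narrowly missed the threshold after adjustment (adjusted p = 0.0512). HIF1AN shares 325 bases, 2.34% of its exons, with NDUFB8 on the opposite strand, and the use of strand in counting is not given in the sources used here.

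**Figure D1:**
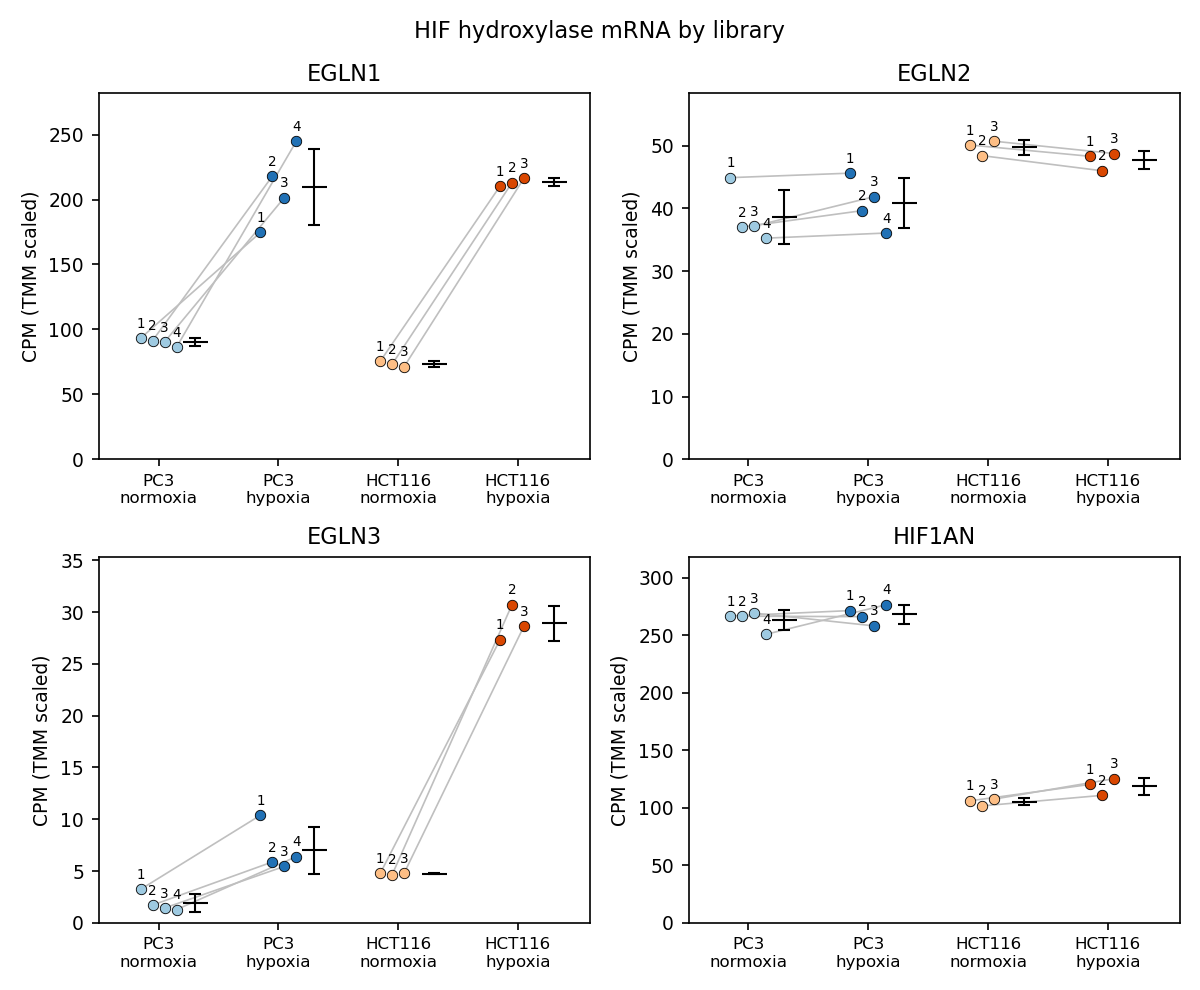
Each panel plots the level of 1 gene in CPM (y axis, linear, from 0) in the 14 libraries. Points are libraries with their replicate number, grey lines join libraries of the same line and number, and black bars are the mean and SD (n = 4 in PC3, n = 3 in HCT116). EGLN1 and EGLN3 lie higher in every hypoxic library than in any normoxic library of the same line, EGLN2 overlaps between conditions in both lines, and HIF1AN lies between 251 and 277 CPM in PC3 and between 102 and 125 CPM in HCT116.

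Within replicate numbers, the hypoxic to normoxic ratio of EGLN1 on the log2 scale was 0.91, 1.25, 1.16 and 1.50 in PC3 and 1.48, 1.54 and 1.60 in HCT116. For EGLN3 the ratios were 1.69, 1.78, 1.93 and 2.32 in PC3 and 2.52, 2.72 and 2.58 in HCT116. All 7 pairs thus rose for both genes, and in PC3 the pair numbered 1 had the smallest ratio and the pair numbered 4 the largest for each.

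The next question was whether the hypoxic response differed between the lines, tested as the interaction of line and oxygen over all 14 libraries (15493 genes). In this test 1.01% of genes were called as responding more positively in PC3 and 1.31% as responding more positively in HCT116. None of the 4 members passed in the fit without a replicate block. For EGLN3 the response in PC3 minus that in HCT116 was −0.73 on the log2 scale (SE 0.37, adjusted p = 0.361), with a 95% interval from −1.52 to 0.06. With the replicate number as a block, the value was −0.69 (SE 0.15), and the adjusted p was 0.0146, past the threshold. Under that block, 4.58% of genes were called lower. With both PC3 libraries numbered 1 left out, it was −0.61 (SE 0.15, adjusted p = 0.0413), with 1.78% of genes called lower. Leaving out single libraries moved the EGLN3 difference from −0.98 (without PC3 hypoxia replicate 1) to −0.35 (without PC3 normoxia replicate 1), and none of these passed.

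For EGLN1 the corresponding difference was −0.32 (SE 0.13, adjusted p = 0.206), with an interval from −0.59 to −0.06, and it passed only without PC3 hypoxia replicate 4, the library with the highest EGLN1 in PC3 (−0.41, adjusted p = 0.0261). For EGLN2 it was 0.14 (SE 0.13, adjusted p = 0.655) and for HIF1AN −0.15 (SE 0.09, adjusted p = 0.433).

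**Figure D2:**
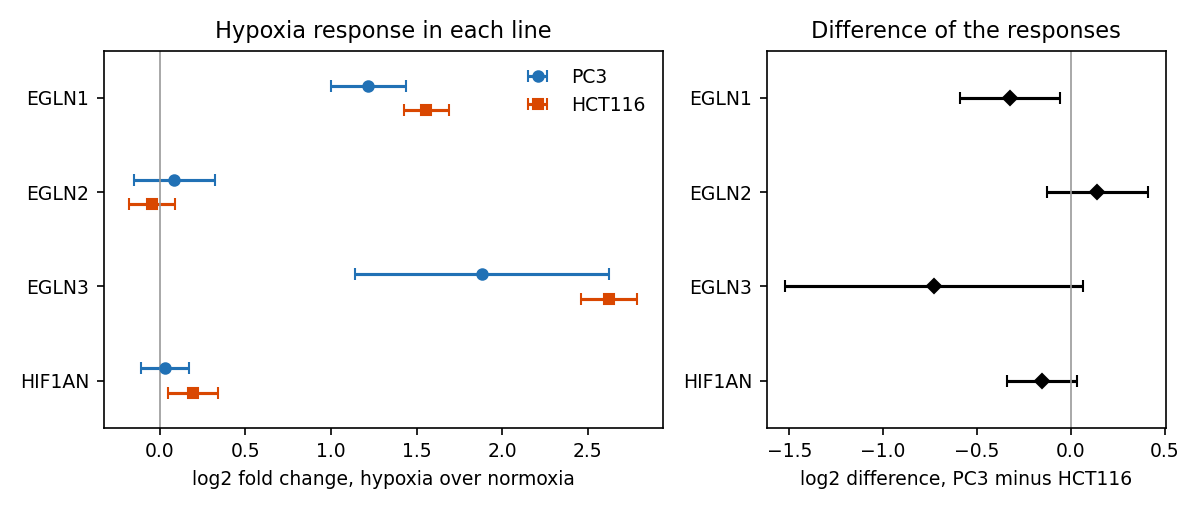
Left, log2 fold change of hypoxia over normoxia (x axis) for each hydroxylase gene in PC3 (blue circles) and HCT116 (orange squares). Right, the response in PC3 minus the response in HCT116 on the log2 scale, and in both panels bars are 95% intervals from edgeR. The intervals of EGLN1 and EGLN3 lie above 0 in both lines, those of EGLN2 span 0 in both, and the interval of the EGLN3 difference runs from −1.52 to 0.06.

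The lines also differed in how much of each hydroxylase they expressed before hypoxia. Over the 15493 genes, 42.4% were called higher and 38.9% lower in PC3 than in HCT116 in normoxia, so that a call is the usual outcome in this comparison. HIF1AN was 2.51-fold higher in PC3 (263 ± 8.40 CPM, SD, n = 4) than in HCT116 (105 ± 3.07 CPM, n = 3), a log2 difference of 1.33 (SE 0.06, adjusted p = 3.22e-11). EGLN3 was lower in PC3 (1.91 ± 0.897 CPM) than in HCT116 (4.74 ± 0.0748 CPM), by −1.31 on the log2 scale (SE 0.27, adjusted p = 3.28e-04). The other 2 genes differed less. EGLN1 was higher in PC3 (90.3 ± 2.90 against 73.3 ± 2.03 CPM, log2 difference 0.30, SE 0.09, adjusted p = 0.00585), and EGLN2 was lower (38.6 ± 4.30 against 49.7 ± 1.19 CPM, log2 difference −0.37, SE 0.09, adjusted p = 0.00139).

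In hypoxia, 41.8% of genes were called higher and 39% lower in PC3. HIF1AN was again higher in PC3 (268 ± 7.87 against 119 ± 7.36 CPM, log2 difference 1.17, SE 0.06, adjusted p = 1.23e-10). EGLN3 was 7.02 ± 2.27 CPM in PC3 and 28.9 ± 1.70 CPM in HCT116, a log2 difference of −2.04 (SE 0.26, adjusted p = 2.58e-06). EGLN1 reached 210 ± 29.5 CPM in PC3 and 213 ± 3.06 CPM in HCT116, and this difference, −0.02 (SE 0.09, interval −0.21 to 0.16), did not pass (adjusted p = 0.810). EGLN2 was lower in PC3, 40.8 ± 4.00 against 47.7 ± 1.48 CPM (log2 difference −0.22, SE 0.09, adjusted p = 0.0301), a call that was lost under total-count scaling (adjusted p = 0.131) and without any of 4 single libraries.

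From the highest to the lowest mean level, EGLN1 therefore ran from HCT116 and PC3 in hypoxia, which did not differ beyond their spread, to PC3 and then HCT116 in normoxia. The order for EGLN3 was HCT116 hypoxia, PC3 hypoxia, HCT116 normoxia and PC3 normoxia. Of these neighbours, PC3 hypoxia (5.45 to 10.4 CPM) and HCT116 normoxia (4.66 to 4.80 CPM) were not tested against each other and did not overlap. EGLN2 was higher in both HCT116 groups than in both PC3 groups by mean, and HIF1AN was higher in both PC3 groups than in both HCT116 groups.

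Levels of different genes were compared per kb of annotated exon (union of GENCODE exons on GRCh37, 5381 bases for EGLN1, 6574 for EGLN2, 7363 for EGLN3 and 13894 for HIF1AN). On this scale EGLN1 was at 16.8 ± 0.539 CPM per kb in PC3 normoxia and 39.0 ± 5.48 in PC3 hypoxia, and at 13.6 ± 0.377 and 39.6 ± 0.569 CPM per kb in HCT116. EGLN1 made up 73.3% ± 1.92 of the summed level of the 3 EGLN genes in PC3 normoxia and 84.2% ± 3.48 in PC3 hypoxia (SD, n = 4). In HCT116 its share was 62.4% ± 0.941 in normoxia and 78.0% ± 0.0569 in hypoxia (n = 3).

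EGLN2, with a level that moved little, held a share of 25.6% in PC3 normoxia and 13.7% in PC3 hypoxia, and of 34.6% and 14.3% in HCT116. EGLN3 held 1.11% and 2.12% in PC3, and 2.95% and 7.73% in HCT116. The summed EGLN level was 22.9 ± 1.25 CPM per kb in PC3 normoxia, 46.1 ± 4.66 in PC3 hypoxia, 21.8 ± 0.385 in HCT116 normoxia and 50.8 ± 0.693 in HCT116 hypoxia. The summed levels of the lines in normoxia were thus close, with a larger mean share of EGLN1 in PC3 and larger mean shares of EGLN2 and EGLN3 in HCT116.

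These shares, and the order of some genes, depended on the length used. With the length of the MANE Select transcript, 4335 bases for EGLN1, 2100 for EGLN2 and 2706 for EGLN3, the share of EGLN1 in HCT116 normoxia was 39.9% and that of EGLN2 was 55.9%, so that their order turned, whereas in HCT116 hypoxia the shares were 59.6% and 27.5%. In PC3 the share of EGLN1 on these lengths was 52.3% in normoxia and 68.5% in hypoxia, and that of EGLN2 was 45.9% and 27.8%. EGLN3 then held 1.73% and 3.73% in PC3, and 4.14% and 12.9% in HCT116. With the longest transcript of each gene, EGLN3 held 2.10% and 4.10% in PC3, and 5.31% and 14.2% in HCT116. Under all 3 lengths the mean share of EGLN1 and of EGLN3 was higher, and that of EGLN2 lower, in hypoxia than in normoxia in both lines.

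HIF1AN was at 19.0 and 19.3 CPM per kb of annotated exon in PC3 and at 7.56 and 8.55 CPM per kb in HCT116, in normoxia and hypoxia. On this scale it was above EGLN1 (16.8 CPM per kb) in PC3 normoxia, but with the longest or the MANE Select transcript it was below it there (20.4 against 20.8 CPM per kb). In the other 3 groups HIF1AN was below EGLN1 under all 3 lengths. EGLN3 was the lowest of the 4 genes per kb of annotated exon in every group. In HCT116 hypoxia it exceeded HIF1AN with the longest transcript (10.1 against 9.19 CPM per kb) and with the MANE Select transcript (10.7 against 9.19), and it was the lowest in the other 3 groups under all 3 lengths.

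**Figure D3:**
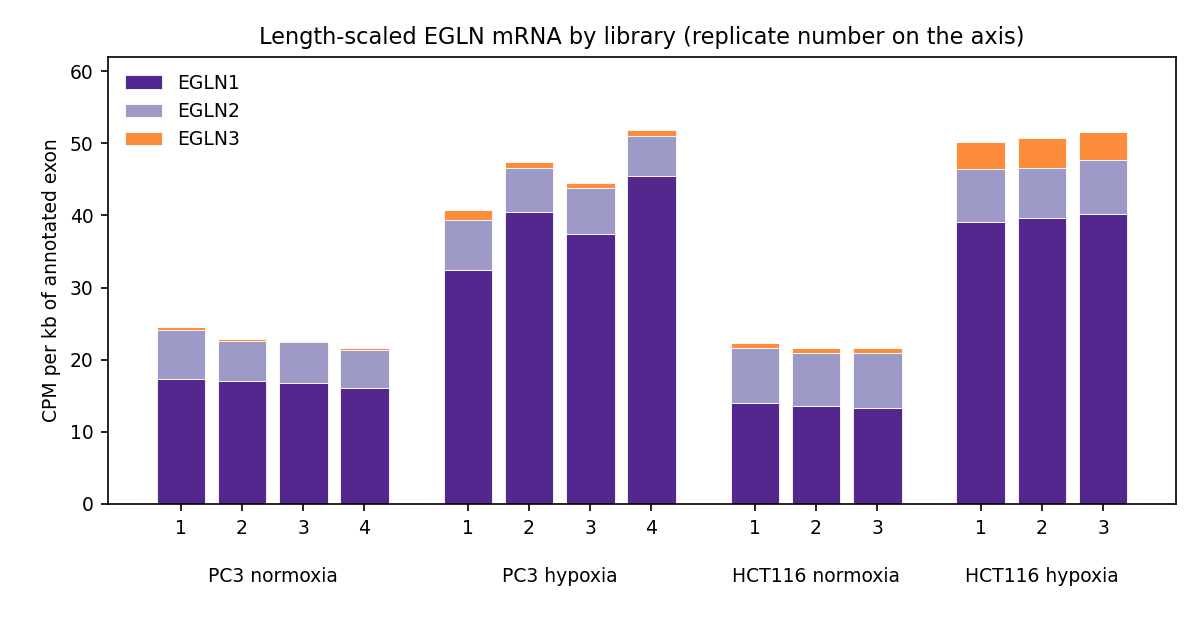
Stacked bars give the level of EGLN1, EGLN2 and EGLN3 in CPM per kb of annotated exon (y axis, from 0) in each of the 14 libraries, grouped by line and condition. EGLN1 (dark) is the largest segment everywhere on this scale, EGLN2 (light) keeps its height between conditions, and EGLN3 (orange) reaches a mean of 3.93 CPM per kb in HCT116 hypoxia against 0.954 in PC3 hypoxia.

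Other genes of the HIF pathway, chosen for their place in it, moved less than EGLN1 and EGLN3. Of 22 such genes, 21 were tested and HIF3A, encoding another α subunit, did not pass the filter. In PC3, 2 rose and 2 fell, beside 6.03% called higher and 5.29% lower among all genes tested. The median log2 fold change over the 21 genes was 0.10 against 0.00 for all genes tested. In HCT116, 6 rose and 1 fell, beside 14.6% higher and 11.3% lower among all genes, with a median of 0.18 against 0.00. With the replicate block 6 rose and 2 fell in PC3, beside 2125 called higher and 1949 lower among all 14309 genes. Without both PC3 libraries numbered 1, 3 rose and 1 fell, beside 1007 higher and 776 lower of 14305 genes. Under total-count scaling 4 rose and 4 fell in HCT116, beside 1286 higher and 3146 lower of 14120 genes. The calls over all genes thus moved as well under these settings. HIF1A, which encodes HIF-1α, fell in both lines, by 0.53 on the log2 scale in PC3 (SE 0.09, adjusted p = 0.00630) and by 0.63 in HCT116 (SE 0.06, adjusted p = 4.86e-05).

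EPAS1, encoding HIF-2α, rose in HCT116 (0.37, SE 0.09, adjusted p = 0.0159), and its log2 fold change was 0.31 in PC3 (adjusted p = 0.156). ARNT, the β subunit, was at −0.01 in PC3 and 0.01 in HCT116 (adjusted p = 0.966 and 0.907). VHL, the substrate-recognition subunit of the ubiquitin ligase, was at −0.26 and −0.06 (adjusted p = 0.443 and 0.475). Its level in PC3 hypoxia ran from 32.2 to 69.7 CPM, with a median of 64.3 CPM. CITED2, a competitor of HIF for p300 and CBP, rose in both lines, by 0.58 in PC3 and 0.66 in HCT116 (adjusted p = 0.0451 and 9.28e-05). SIAH2, a ubiquitin ligase that targets PHD proteins, also rose, by 0.46 and 0.44 (adjusted p = 0.00496 and 6.39e-04). The deubiquitinase gene USP20 fell by 0.28 in PC3 (adjusted p = 0.0470). FKBP8, a binding partner of PHD2, rose by 0.49 in HCT116 (adjusted p = 3.23e-04), the coactivator CREBBP by 0.29 (adjusted p = 0.0206) and OS9, encoding an endoplasmic reticulum lectin, by 0.27 (adjusted p = 0.0128). In PC3, where they did not pass, FKBP8 was at 0.29, CREBBP at 0.33 and OS9 at 0.10 (adjusted p = 0.118, 0.0848 and 0.517). USP20 was at −0.04 in HCT116 (adjusted p = 0.727). None of the 21 genes passed the test of a difference in response between the lines.

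The HIF hydroxylases belong to the wider family of 2-oxoglutarate-dependent dioxygenases, of which 56 other members were listed. The files held 53 of these. In PC3, 50 were tested, of which 11 rose and 2 fell, with a median log2 fold change of 0.06. Among all genes tested in PC3, 6.03% were called higher and 5.29% lower. In HCT116, 51 were tested, of which 17 rose and 8 fell, with a median of 0.07, beside 14.6% higher and 11.3% lower among all genes. With the replicate block 14 rose and 7 fell in PC3, beside 2125 called higher and 1949 lower among all 14309 genes. Under total-count scaling, 8 rose and 6 fell in PC3, beside 562 higher and 1733 lower of the same number of genes. In HCT116 under that scaling 14 rose and 11 fell, beside 1286 higher and 3146 lower of 14120 genes. Without PC3 normoxia replicate 2, 7 rose and 2 fell in PC3, beside 372 higher and 202 lower of 14400 genes. The counts of the list were the same without PC3 normoxia replicate 3. The largest rises in PC3 were P4HA1 (1.26) and P4HA2 (0.87), subunits of the collagen prolyl hydroxylase, PLOD2 (1.01), a collagen lysyl hydroxylase, and KDM3A (1.01), a histone H3K9 demethylase.

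In HCT116 they were PLOD2 (2.88), P4HA1 (2.63), KDM3A (2.42) and KDM4B (1.73), the last a histone demethylase. EGLN3, at 1.88 in PC3, exceeded each of those in PC3, and EGLN1, at 1.22, lay just below P4HA1 there. In HCT116, PLOD2 lay above EGLN3 (2.62), P4HA1 lay level with it, and EGLN1 (1.56) lay below KDM4B. ALKBH2, a DNA repair dioxygenase, and the tRNA-modifying ALKBH8 fell in PC3, by 0.48 and 0.40. In HCT116, HSPBAP1, the tRNA hydroxylase gene TYW5, the ribosomal hydroxylase gene MINA and the DNA repair gene ALKBH3 fell most, by 0.66, 0.40, 0.33 and 0.27. All of the dioxygenases named here passed the test.

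The difference between the lines was called for 5 of the 51 dioxygenases, all with the larger response in HCT116, against 1.31% of all genes in that direction. These were PLOD2 (−1.86), KDM3A (−1.41), P4HA1 (−1.35), KDM4B (−0.95) and PLOD1 (−0.82), each in PC3 minus HCT116 on the log2 scale. The estimates for EGLN1 (−0.32) and EGLN3 (−0.73) were smaller in size than any of these, which were picked because they passed. The EGLN3 interval, from −1.52 to 0.06, covers all of these values except that of PLOD2. Whether EGLN1 or EGLN3 differed from them was not tested.

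A list of 10 classical hypoxia targets rose in full in both lines, with a median log2 fold change of 1.58 in PC3 and 3.11 in HCT116. It was chosen with earlier results of these data known and served only as a check of the labels. Over all genes tested, 6.03% were called higher in PC3 and 14.6% in HCT116. Without PC3 normoxia replicate 2 or 3, only 7 of the 10 were called higher in PC3, beside 372 of 14400 and 364 of 14422 genes. The count was 9 without PC3 normoxia replicate 4 or without PC3 hypoxia replicate 2. The list holds genes of glucose metabolism (PFKFB4, SLC2A1, PDK1), pH control (CA9), mitophagy (BNIP3), mTOR inhibition (DDIT4) and angiogenic or vasoactive signalling (VEGFA, ADM). NDRG1 (2.87 and 2.78 in PC3 and HCT116), PFKFB4 (2.02 and 3.34), BNIP3 (1.71 and 3.22), ANKRD37 (1.66 and 3.44), CA9 (1.66 and 6.03) and DDIT4 (1.50 and 4.08) were among them. The others were ADM (1.39 and 1.92), SLC2A1 (1.24 and 2.12), PDK1 (0.72 and 2.99) and VEGFA (0.65 and 1.10). In PC3, EGLN3 was above 8 of these 10 and EGLN1 above 2, and in HCT116 EGLN3 was above 3 and EGLN1 above 1. For 6 of the 10 (CA9, DDIT4, PDK1, ANKRD37, BNIP3 and PFKFB4) the response was called larger in HCT116, by between 1.31 and 4.35 on the log2 scale. With the replicate block 9 of the 10 were called, and 8 without both PC3 libraries numbered 1.

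**Figure D4:**
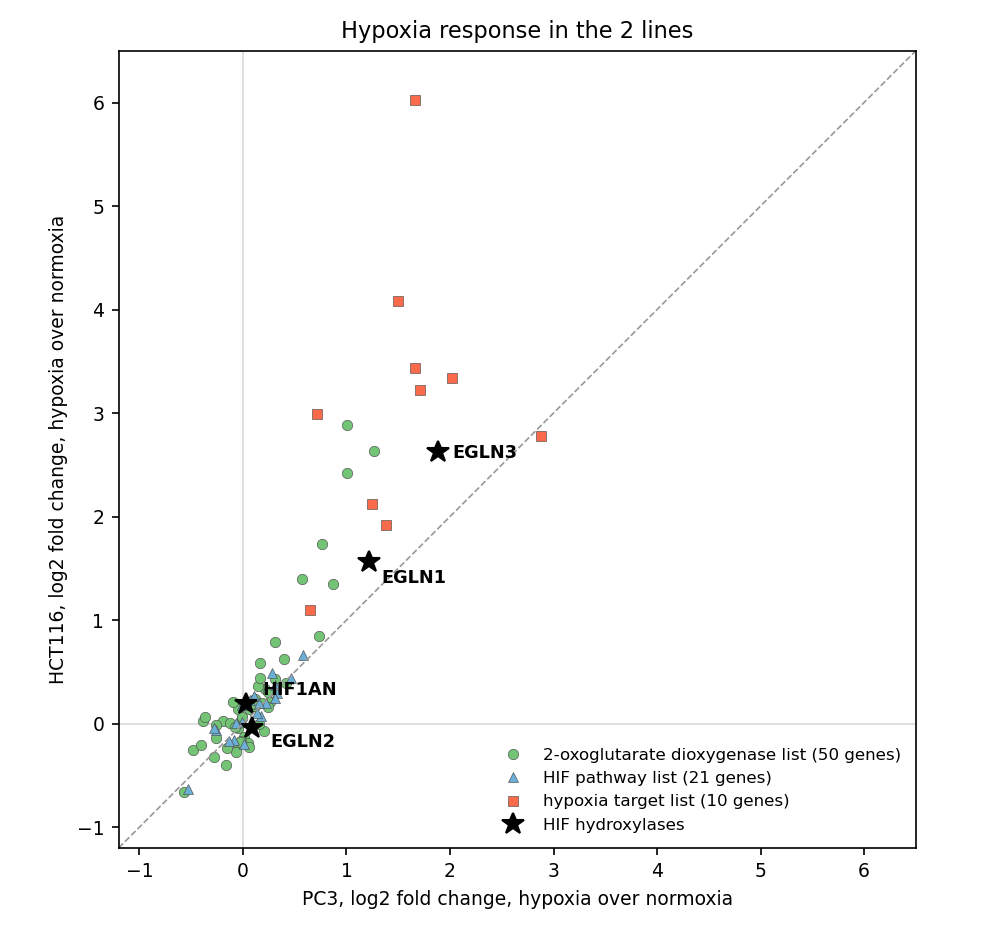
Log2 fold change of hypoxia over normoxia in PC3 (x axis) and in HCT116 (y axis) for the 4 HIF hydroxylases (stars) and the genes of the 3 lists that were tested in both lines, with the dashed line marking equal change. EGLN1 (1.22 and 1.56) and EGLN3 (1.88 and 2.62) lie a little above the line of equal change among the hypoxia targets, and EGLN2 and HIF1AN lie near 0 in both lines.

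Across the 14 libraries, which share line and oxygen as sources of variation, the genes whose levels ran most like EGLN1 (Pearson r over log2 CPM of 12638 genes) were RIMKLA (r = 0.995), PFKFB4 (0.986) and TMEM45A (0.972). For EGLN3 they were ADM (0.994), KIAA1432 (0.976) and RLF (0.973), for EGLN2 MKX (0.971), ABAT (0.962) and SCARA3 (0.960), and for HIF1AN SPTLC3 (0.998), CDYL2 (0.998) and SPG20 (0.997). After subtraction of each line's mean, EGLN1 ran most like RIMKLA (0.995), HK1 (0.993) and SLC16A3 (0.992), and EGLN3 most like ADM (0.994), ANGPTL4 (0.987) and SLC2A1 (0.985). The nearest genes to EGLN2 were then GAS6 (0.957), CPA4 (0.949) and SLC22A23 (0.944), and those to HIF1AN were SMAD7 (0.884), FJX1 (0.868) and PTRF (0.865). EGLN1 and EGLN3 correlated at 0.694 before and 0.938 after this subtraction. EGLN2 and HIF1AN correlated at −0.807 before it and 0.0247 after it, so that their opposite levels lay between the lines and not within them.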

How the data were processed

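Polyadenylated RNA-seq was made from 14 libraries of PC3 and HCT116 cells in normoxia or hypoxia. Reads of the ERCC spike-in were removed by the authors and are not used here. The authors aligned reads to GRCh37 with HISAT2 (version 2.05 in the submitters' processing notes) and deposited HTSeq (0.5.4p3, intersection-strict mode) counts per RefSeq gene, without normalisation. The RefSeq release and the strand setting are not given in the sources used here. Total counts were 71228454 to 150630928 per library.

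Genes were filtered with filterByExpr, scaled by TMM and tested in each line with edgeR (4.0.16, R 4.3.3), and over both lines for the interaction and the line differences. Standard errors were obtained as the unshrunk change divided by the root of F, and intervals are 95%. CPM used the TMM factors over 14 libraries. No pair of libraries was identical. DESeq2 (1.42.0), other scalings, no filter, one fit over both lines, the replicate block and each library left out were alternatives. MANE Select lengths, and leaving out both PC3 libraries numbered 1, were added after seeing the data. The tests were tested on simulated data.

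The members and gene lists were chosen with earlier results of these data known. Pathway genes are named where past the threshold, with HIF1A, EPAS1, ARNT and VHL, dioxygenases where among the 4 largest changes past the threshold in a direction, and all hypoxia targets and the 3 genes most like each member, with a mean of at least 1 CPM. PLOD1 was named after its values were seen.

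In PC3, departures of same-numbered libraries from their group means correlated across genes at 0.675, 0.267, 0.140 and 0.282. Libraries of different number correlated at −0.420 to 0.198, so the ranges overlapped, and the pair numbered 1 stood out most. Each PC3 library correlated most with that of its own number in the other condition, for hypoxia replicate 3 only narrowly (0.140 against 0.136). In HCT116 same-numbered libraries correlated at 0.0908, 0.138 and 0.0429, each above the range for different numbers (−0.0939 to 0.00209). Among more abundant genes the ranges overlapped, at −0.0596 to 0.387 for the same number and −0.279 to 0.211 for different numbers. Whether the numbers pair libraries in HCT116 is thus open.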

Additional observations from a re-analysis of the deposited data

Results flagged for a closer look

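HIF1AN in PC3 normoxia was 251 CPM in replicate 4 against 267 to 269 CPM in the other 3 replicates, a gap wide for the range of the group. Of the 8 groups of 4 libraries examined (4 genes in 2 PC3 groups), 1 was marked in this way, and chance marks about 1 in 20. Without this library the log2 fold change of HIF1AN in PC3 was 0.00309, against 0.03 with it.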

How the results depend on the processing

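Over all alternatives, 344 of 360 values for the members kept their direction and their side of the threshold. EGLN1 and EGLN3 passed in all 16 alternatives in PC3 (1.11 to 1.31 and 1.62 to 2.27 on the log2 scale) and in all 13 in HCT116 (1.46 to 1.56 and 2.53 to 2.66). The differences of all 4 genes between the lines in normoxia passed in all 20. In PC3, HIF1AN changed sign under upper-quartile scaling (−0.0133) and total-count scaling (−0.0752), and EGLN2 under total-count scaling (−0.0170), where the median of all genes moved to −0.10. Total-count scaling also moved the line differences in hypoxia of EGLN1 to 0.0263 (a change of sign) and of EGLN2 to −0.17 (past the threshold no longer). Leaving out both PC3 libraries numbered 1 turned the former to 0.0570. In HCT116, HIF1AN passed under DESeq2 (0.18, adjusted p = 0.0489) and, with hypoxia replicate 2 left out, at 0.24 (adjusted p = 0.0335).

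With single libraries left out, that HIF1AN value ran from 0.16 to 0.24, the EGLN1 difference in response from −0.41 to −0.25, and the line differences in hypoxia of EGLN1 from −0.128 to 0.0557 (positive without PC3 hypoxia replicate 1) and of EGLN2 from −0.28 to −0.19. The EGLN2 call was lost without PC3 hypoxia replicate 2 or 4, or HCT116 hypoxia replicate 1 or 3. The EGLN3 difference in response passed with the replicate block (−0.69) and with both PC3 libraries numbered 1 left out (−0.61). The block changed no other call of a member. It could not be fitted to the line differences, since the numbers lie within lines, and whether the numbers pair libraries in HCT116 is open. The cause of these changes was not tested.

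The number of genes past the threshold in PC3 was 1620, against 4074 with the block, 2568 with DESeq2, 2465 with one fit over both lines and 553 to 2085 with 1 library left out. In HCT116 it was 3658, against 1733 with one fit over both lines. For the difference between the lines it was 359, against 1306 with the block, 971 with DESeq2 and 177 to 717 with 1 library left out. The highest of these leave-out counts, 2085 in PC3 and 717 for the difference, were both reached without PC3 hypoxia replicate 4. The share of calls that were higher fell from 53.3% to 39.4% (upper-quartile) and 24.5% (total-count) in PC3, from 56.3% to 29% (total-count) in HCT116, and from 43.5% to 29.3% (upper-quartile) in the difference. EGLN3 in PC3, at 147 to 949 counts, had the largest standard error of the members in either line.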
